A study of Mus musculus with 26 samples.

Results

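Spleen libraries coded MN, from mice given ovalbumin and a miR-676-3p mimic (5 libraries), were compared with those coded ON, from mice given ovalbumin (5 libraries). These 10 libraries were taken by the code in their labels, out of 26 in the series. All came from female BALB/c mice, 8 weeks old, and poly(A) RNA was sequenced. Ovalbumin, an allergen from egg white, was injected intraperitoneally on days 1, 3 and 5 (0.05 mg per day) in MN and ON alike. MN also had the mimic in the tail vein on day 3, at a dose of 7 mg per kg of body weight, and no mimic or control oligonucleotide is stated for ON. The labels do not say what separates MN from MM (5 libraries), the other code for ovalbumin and mimic, or ON from OS (6 libraries), the other code for ovalbumin. Saline mice (code CT, 5 libraries) had no ovalbumin. The labels give 20 mice per group and do not tie libraries to mice, so p-values measure only the spread between libraries, which may be technical.

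A microRNA guides an Argonaute protein to partly matching sites, mostly in the 3′ untranslated region (UTR) of messenger RNAs, and lowers their level or translation. Pairing of bases 2 to 8, the seed, sets most of the targets, and a mimic is a synthetic duplex that adds the mature strand to cells. The mouse spleen filters blood, holds B and T cells, and makes blood cells, platelet-forming megakaryocytes among them.

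The mature strand copied by the mimic is shown with seed matches in 3 genes, because these letters are what the treatment could pair with. The mature sequence is from RefSeq (GRCm38.p6, chrX:100381151-100381171, + strand), with its seed in capitals. The seed match, CAGGACG, is in capitals in the 3′ UTR sites, with 9 bases on either side, from a GRCm38 transcript set. The 7 capitals lie at chr5:115097813-115097819 (+) for Sppl3, chr19:43730084-43730090 (+) for Entpd7 and chr16:49914054-49914060 (+) for Cd47. These had some of the smallest p among site genes that were lower in MN, and were chosen with their values seen.
mmu-miR-676-3p: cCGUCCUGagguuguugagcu
Sppl3 site: ggcagtgagCAGGACGcggttggtt
Entpd7 site: tttggtgccCAGGACGggacctctt
Cd47 site: gctctctttCAGGACGttgtagtca

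The 10 MN and ON libraries held 14581525 to 18113989 reads, recovered from the deposited FPKM (fragments per kilobase of gene, scaled to library size). Defining B and T cell markers were present in all 10, with Cd79a at 138 to 396 FPKM and Cd3e at 9.82 to 16.0 FPKM. Pancreas genes took at most 0.00452% of reads in MN libraries, against 31.3% in ON 2, 4.80% in ON 3 and at most 0.00352% in the other ON libraries. The pancreas adjoins the spleen. The acinar gene Cela1 was at 8.26 to 10.4 FPKM in MN, against 12902 FPKM in ON 2, 1578 FPKM in ON 3 and 7.40 to 10.1 FPKM in the rest of ON. ON 2 and ON 3 therefore stand apart from the other ON libraries, and a result is also given without them where they move it by over 1.5 times or turn its direction.

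A few ribosomal protein genes and gene copies rose in MN, in lists that lay mostly above 0, and a few genes, Adgrg1 of blood stem cells and Taf4 of the transcription machinery among them, were lower. With all 26 libraries in the fit and 15672 genes tested, 39 genes (0.249%) passed an adjusted p of 0.05 (limma on log2(FPKM + 1), Benjamini-Hochberg over all tested genes). Of these, 34 (0.217%) rose in MN and 5 (0.0319%) fell. The median over all tested genes was a log2 difference of 0.0018. The 34 that rose had a median log2 difference of 1.25, and 27 of them rose at least 2-fold. Of the 34, 21 are annotated as pseudogenes or carry a pseudogene symbol, and the share of these among all tested genes was not counted. Of the 34, 27 are under 1000 bases long, as are 2880 (18.4%) of all tested genes. Reads of near-identical copies may have been shared out between a gene and its copies, so which copy they came from is uncertain.

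The count depended on the spread used and on ON 2 and ON 3. In a fit to the 10 MN and ON libraries alone, 632 genes (4.03%) passed, 529 (3.38%) higher and 103 (0.657%) lower, and all 39 were among them. The median standard error was 0.110 in that fit, against 0.161 with all 26 libraries. Without ON 2 and ON 3 the fit to all other libraries left 0 genes, with 581 at an unadjusted p under 0.05. Without them the fit to MN and ON alone left 305 genes (1.95%), 281 (1.79%) higher and 24 (0.153%) lower, 30 of the 39 among them. All 39 kept their sign in each of these fits. Leaving out 1 library from the fit to all libraries gave 7 genes without ON 3, 9 without MN 2, 14 to 23 without any one of MN 1, MN 3, MN 4, MN 5, ON 1 or ON 2, 26 without ON 4 and 34 without ON 5.

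Ribosomal proteins make up the 2 subunits of the ribosome and are coded by short, abundant messenger RNAs. Rps29, a small-subunit protein (ENSMUSG00000034892, chromosome 12, 69204496 to 69205960 on the build of the deposited table, which it does not name), had 1323, 1286, 1408, 1220.5 and 1277 FPKM in MN. It had 348, 217, 299.8, 436 and 419 FPKM in ON. Every MN library lay above every ON library, and the saline libraries had a median of 1282 FPKM with a lowest of 322 FPKM. Rps29 rose by a log2 difference of 1.96 (SE 0.42, limma adjusted p = 0.0447), and by 1.70 without ON 2 and ON 3.

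**Figure D1:**
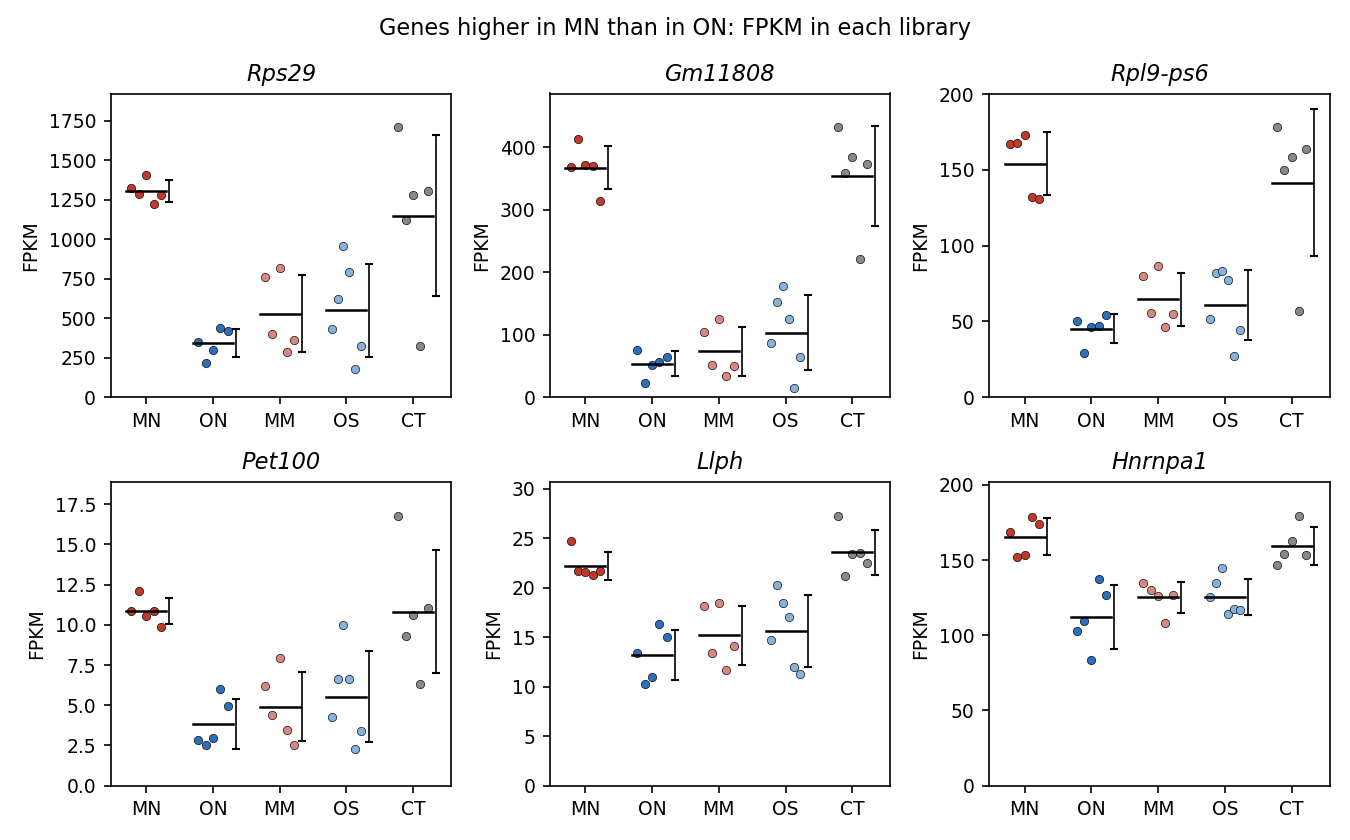
FPKM of 6 genes that rose in MN, with 1 point per library, a line at the mean and an error bar of 1 SD beside it, for MN, ON, MM, OS and saline (CT). Each y axis starts at 0; the 5 MN points lie above the 5 ON points in every panel, and Rps29 runs from 1220.5 to 1408 FPKM in MN and from 217 to 436 FPKM in ON.

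Several of the larger rises lay in short predicted genes and gene copies. Gm11808, a short predicted gene annotated as protein-coding (504 bases, chromosome 4), had 368, 413, 371, 370.4 and 314 FPKM in MN, against 75.1, 22.5, 50.9, 56.3 and 64.4 FPKM in ON. The lowest MN value was over 4 times the highest ON value. The log2 difference was 2.85 (SE 0.46, limma adjusted p = 0.00894), or 2.48 without ON 2 and ON 3. Rpl9-ps6, a copy of the large-subunit gene Rpl9, had 167, 168, 173, 132 and 131 FPKM in MN, against 50.4, 28.8, 46.1, 46.9 and 54.0 FPKM in ON. It rose by 1.77 (SE 0.29, limma adjusted p = 0.00894). Rps13-ps1, a copy of Rps13, had 9.91 to 14.6 FPKM in MN and 4.07 to 6.09 FPKM in ON, and rose by 1.09 (SE 0.15, limma adjusted p = 0.00342). These 3 genes, chosen with their values seen, passed in each of 10 fits that left out 1 MN or ON library. Rps29 passed in 0 of those 10, at limma adjusted p from 0.0565 to 0.152.

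As a group, the 83 tested of 87 ribosomal protein genes had a median log2 difference of 0.41, with 78 of 83 above 0, against 50.4% of all tested genes. The list was drawn by symbol and includes Rps19bp1, which is not a ribosomal protein. Rps29 and Rpl35a rose and 0 members fell, against 0.217% and 0.0319% of all tested genes. In the fit to MN and ON alone 36 of 83 rose and 0 fell, against 3.38% and 0.657% of all tested genes. Without ON 2 and ON 3 that fit left 22 of 83 higher and 0 lower, against 1.79% and 0.153% of all tested genes. In 47 of 83 every MN library lay above every ON library, as in 5.68% of all tested genes. The list's median was 0.39 without ON 2 and ON 3. Its median gene length was 1770 bases. Of 745 protein-coding genes from 1500 up to 2000 bases, without ribosomal protein and oxidative phosphorylation genes, 71.3% lay above 0. In the fit to MN and ON alone 51 of these 745 were higher and 1 lower.

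Members differed widely in size. Rps28 had 252, 265, 249.9, 249 and 224 FPKM in MN, against 67.2, 23.4, 43.7, 82.4 and 81.9 FPKM in ON, with a log2 difference of 2.17 that did not pass (SE 0.53, limma adjusted p = 0.0811). Rpl38 averaged 802 ± 110.2 FPKM in MN and 251 ± 47.9 FPKM in ON (SD, n = 5 each), a difference of 1.68 (limma adjusted p = 0.0776). Rpl37 averaged 270 ± 25.2 FPKM in MN and 141 ± 17.8 FPKM in ON, a difference of 0.93 (limma adjusted p = 0.0543). All 3 passed in the fit to MN and ON alone, at limma adjusted p of 0.00455, 0.000685 and 0.00211. Rpl35a rose, with 15.4 ± 2.64 FPKM in MN and 6.16 ± 2.53 FPKM in ON (log2 difference 1.25, SE 0.27, limma adjusted p = 0.0484). Rpl30 had the lowest difference of the list, with 5.62 to 7.89 FPKM in MN, and 5.15 FPKM in ON 1 and 16.0 to 20.6 FPKM in the other ON libraries. Its difference of -1.04 did not pass (limma adjusted p = 0.496).

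Copies of ribosomal protein genes had a median log2 difference of 0.32, with 83 of 110 tested copies above 0, of 322 in the table. Of the 110, 6 rose and 0 fell, against 0.217% and 0.0319% of all tested genes. In the fit to MN and ON alone 27 rose and 4 fell, against 3.38% and 0.657% of all tested genes. The tested copies had a median gene length of 477.5 bases. Of 50 protein-coding genes under 500 bases, without ribosomal protein and oxidative phosphorylation genes, 74% lay above 0. In that fit 7 of the 50 were higher and 0 lower. Besides Rpl9-ps6 and Rps13-ps1, Rpl36a-ps1 had 3.76 to 5.38 FPKM in MN and 0.405 to 1.63 FPKM in ON, and rose by 1.61 (SE 0.28, limma adjusted p = 0.0116). Ribosomal protein genes took 5.14% to 6.04% of the reads that were not pancreatic in MN, against 3.95% to 4.41% in ON, with no overlap. In saline libraries that share was 5.78% to 7.65%.

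Oxidative phosphorylation makes ATP in mitochondria from subunits coded mostly in the nucleus and partly in mitochondrial DNA. The 84 tested of 89 nuclear genes had a median log2 difference of 0.38, with 78 above 0. In the fit to all libraries 0 passed. In the fit to MN and ON alone 37 of 84 rose and 0 fell, against 3.38% and 0.657% of all tested genes. Without ON 2 and ON 3 that fit left 14 of 84 higher and 0 lower, against 1.79% and 0.153% of all tested genes. In 43 of 84 every MN library lay above every ON library, against 5.68% of all tested genes. The list's median gene length was 1578 bases. Of the 745 protein-coding genes from 1500 up to 2000 bases outside this list and the ribosomal proteins, 71.3% lay above 0. In the fit to MN and ON alone 51 of these were higher and 1 lower. Atp5k, a subunit of ATP synthase, had 72.4, 71.8, 72.6, 69.7 and 65.0 FPKM in MN, against 19.1, 4.23, 6.49, 32.9 and 29.5 FPKM in ON. Its difference of 2.23 did not pass (SE 0.77, limma adjusted p = 0.323), and it was 1.37 without ON 2 and ON 3. Cox5b, a subunit of cytochrome c oxidase, averaged 64.2 ± 3.07 FPKM in MN and 30.8 ± 8.73 FPKM in ON (difference 1.08, limma adjusted p = 0.0776). Ndufv3, of complex I, averaged 13.5 ± 0.943 FPKM in MN and 8.07 ± 1.48 FPKM in ON (difference 0.69, limma adjusted p = 0.0501).

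Pet100, which helps to assemble cytochrome c oxidase, had 10.9, 12.1, 10.5, 10.8 and 9.88 FPKM in MN, against 2.84, 2.51, 2.95, 6.02 and 4.97 FPKM in ON. Pet100 rose by 1.34 (SE 0.29, limma adjusted p = 0.0456). Tomm7, of the import pore of the outer membrane, averaged 44.4 ± 5.21 FPKM in MN and 15.6 ± 6.38 FPKM in ON, a difference of 1.52 that did not pass (limma adjusted p = 0.0592). The 29 tested of 37 mitochondrially encoded genes had a median of -0.13, or -0.04 without ON 2 and ON 3, and 0 passed. They include transfer RNA genes and the ribosomal RNA genes mt-Rnr1 and mt-Rnr2, which do not code for subunits. With each library's trend with gene length subtracted, the median was -0.31. Of the 29, 13 lay above 0 and 16 below. In the fit to MN and ON alone 3 of 29 rose and 0 fell, against 3.38% and 0.657% of all tested genes. Every MN library lay above every ON library in 3 and below in 2, against 5.68% and 2.36% of all tested genes. Among the 29, mt-Co1 had 3644 to 4019.8 FPKM in MN and 4150.5 to 6706 FPKM in ON (difference -0.44, limma adjusted p = 0.700, or -0.24 without ON 2 and ON 3).

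Other named genes that rose act in the nucleus or nucleolus. Llph, a nucleolar protein, had 24.7, 21.7, 21.5, 21.3 and 21.6 FPKM in MN, against 13.4, 10.3, 11.0, 16.3 and 15.0 FPKM in ON (log2 difference 0.73, SE 0.15, limma adjusted p = 0.0340). Hnrnpa1, an RNA-binding protein that regulates splicing, had 169, 152, 153, 179 and 174 FPKM in MN, against 103, 109.5, 83.7, 137 and 127 FPKM in ON. Its log2 difference was 0.57 (SE 0.11, limma adjusted p = 0.0251). Cbx1, a heterochromatin protein, averaged 18.5 ± 1.33 FPKM in MN and 13.2 ± 2.29 FPKM in ON (log2 difference 0.47, limma adjusted p = 0.0484). Without ON 2 and ON 3 it was 0.30 (limma adjusted p = 0.897). Among genes of small p that did not pass, Gngt2, a G protein gamma subunit, averaged 20.6 ± 0.771 FPKM in MN and 10.6 ± 2.71 FPKM in ON (difference 0.93, limma adjusted p = 0.0519). Slc39a7, a zinc transporter, averaged 3.51 ± 0.565 FPKM in MN and 1.32 ± 0.188 FPKM in ON (difference 0.96, limma adjusted p = 0.0601).

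Mir301, the hairpin of a microRNA within the gene Ska2, also passed, on very few reads. It had 4, 8, 3, 2 and 4 reads in MN, against 0, 0, 0, 0 and 1 reads in ON, and its log2 difference was 1.71 (SE 0.31, limma adjusted p = 0.0142). Poly(A) libraries do not measure mature microRNA, and reads of Ska2 over the same bases cannot be told apart from the hairpin's. Ska2 averaged 7.17 ± 0.859 FPKM in MN and 7.10 ± 1.63 FPKM in ON (difference 0.03, limma adjusted p = 0.956, or -0.05 without ON 2 and ON 3). Mir676, the gene of the microRNA in the mimic, was listed at 0 in all 10 libraries. The mimic is a synthetic duplex and not a transcript of Mir676, so its delivery could not be read from these data at any value of Mir676.

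Genes that fell were fewer and changed less. Adgrg1, an adhesion receptor found on blood stem cells and cytotoxic lymphocytes, had 4.75, 3.97, 5.79, 3.70 and 4.97 FPKM in MN, against 6.99, 10.03, 9.77, 8.15 and 7.27 FPKM in ON. The highest value in MN lay below the lowest in ON, and Adgrg1 fell by 0.74 on the log2 scale (SE 0.15, limma adjusted p = 0.0370). Without ON 2 and ON 3 it was -0.60. In bulk tissue, fewer cells of a type and less RNA per cell cannot be told apart. Grb10, an adaptor that dampens growth factor receptors, averaged 2.61 ± 0.198 FPKM in MN and 4.24 ± 1.1 FPKM in ON (difference -0.52, SE 0.11, limma adjusted p = 0.0456). Taf4, a subunit of the general transcription factor TFIID, had 10.8 to 12.9 FPKM in MN and 13.4 to 16.6 FPKM in ON. It fell by 0.36 on the log2 scale (SE 0.07, limma adjusted p = 0.0226), and by 0.37 without ON 2 and ON 3. A processed pseudogene fell too. When 1 of the 10 libraries was left out, the call of Rpl35a held in 1 of 10 fits, as did that of Grb10, while those of Pet100, Llph, Hnrnpa1, Cbx1 and Adgrg1 held in 2, that of Taf4 in 3 and that of Mir301 in 8.

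**Figure D2:**
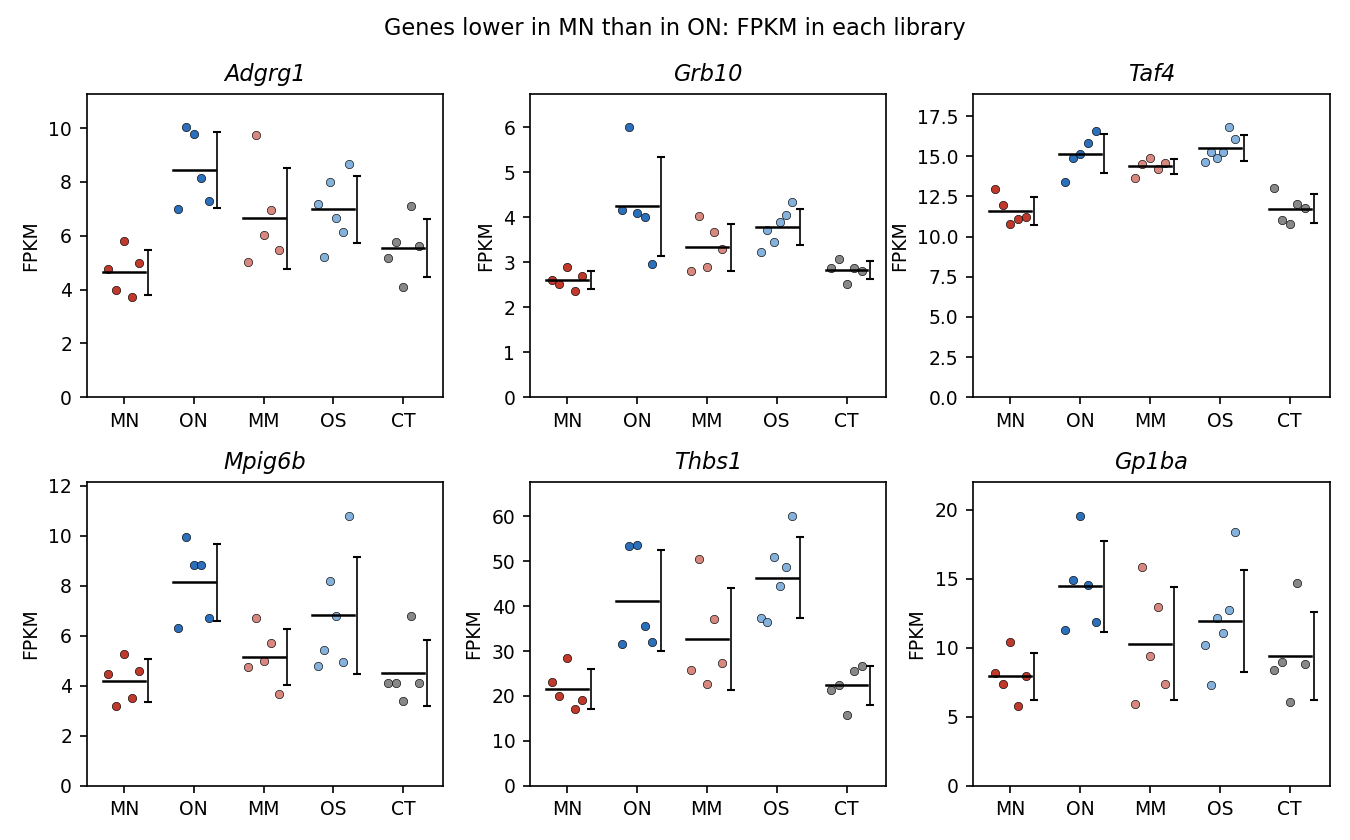
FPKM of 6 genes lower in MN, drawn as 1 point per library with a line at the mean and an error bar of 1 SD, for MN, ON, MM, OS and saline (CT). Adgrg1, Grb10 and Taf4 passed the test and Mpig6b, Thbs1 and Gp1ba did not; in each panel the 5 MN points lie below the 5 ON points, with Adgrg1 at 3.70 to 5.79 FPKM in MN and 6.99 to 10.03 FPKM in ON.

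The megakaryocyte and platelet list was mostly lower in MN. Of its 20 tested genes 18 lay below 0, against 49.6% of all tested genes, with a median log2 difference of -0.55, or -0.39 without ON 2 and ON 3. In the fit to all libraries 1 of 20 fell, against 0.0319% of all tested genes, while 5 of 20 fell and 0 rose in the fit to MN and ON alone, against 0.657% and 3.38%. That fit without ON 2 and ON 3 left 0. In 5 of 20 every MN library lay below every ON library, as in 2.36% of all tested genes. Thbs1, a platelet granule protein, had 23.1, 20.1, 28.5, 17.0 and 19.0 FPKM in MN, against 31.5, 53.4, 53.5, 35.6 and 32.0 FPKM in ON. Its difference of -0.89 did not pass (SE 0.21, limma adjusted p = 0.0697). Gp1ba, a receptor for von Willebrand factor, averaged 7.93 ± 1.68 FPKM in MN and 14.4 ± 3.28 FPKM in ON (difference -0.79, limma adjusted p = 0.217). Mpig6b, an inhibitory platelet receptor outside the list, averaged 4.21 ± 0.847 FPKM in MN and 8.14 ± 1.55 FPKM in ON (difference -0.81, limma adjusted p = 0.0691).

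The platelet chemokines Ppbp and Pf4 did not pass, and their values in MN and ON overlapped. Ppbp averaged 258 ± 48.7 FPKM in MN and 423 ± 109.8 FPKM in ON (difference -0.69, limma adjusted p = 0.380). Pf4 averaged 174 ± 25.1 FPKM in MN and 195 ± 48.3 FPKM in ON, a difference of -0.14 (limma adjusted p = 0.881) that was 0.01 without ON 2 and ON 3.

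Other genes of small p did not pass but were lower in all 5 MN libraries than in any ON library, as were 2.36% of all tested genes. Since p in these same libraries chose them, the lack of overlap is no separate result. These genes were Lrrc58 at -0.51, Tgfb1i1 (an adhesion adaptor) at -0.58 and Fam117b at -0.33 on the log2 scale. Efhd1 (a calcium-binding protein) at -0.43 and Wasl (an actin regulator) at -0.32 were the others. Their limma adjusted p ran from 0.0742 to 0.109.

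Genes with a seed match were looked at as a group. Of 11873 tested protein-coding genes with an annotated 3′ UTR, 364 (3.07%) held the 7-base match in their longest UTR. None of the 364 passed in the fit to all libraries, and 8 rose and 2 fell in the fit to MN and ON alone, against 358 and 75 of 11509 genes with no match. Their median log2 difference was -0.04, against -0.01 for genes with no match, and 63.5% were below 0, against 52.2%. Site genes were longer, with a median of 5985 bases against 4346. Among genes of at least 5000 bases the medians were -0.07 for 221 with a match and -0.08 for 4804 without. A match is a description of letters and not a shown site of binding.

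Sppl3, an intramembrane protease of the Golgi, had the smallest p among the site genes that were lower in MN. It had 9.04, 8.79, 7.89, 8.73 and 9.91 FPKM in MN, against 11.2, 11.3, 13.0, 12.3 and 13.3 FPKM in ON. The codes did not overlap, and the difference of -0.42 (SE 0.10) did not pass (limma adjusted p = 0.0776). It was -0.42 without ON 2 and ON 3, and -0.03 for MM against OS. Cd47, a signal on blood cells that restrains their uptake by macrophages, had 59.0, 60.2, 53.9, 54.2 and 56.4 FPKM in MN, against 67.3, 77.1, 75.1, 72.9 and 72.8 FPKM in ON. Its difference of -0.36 did not pass (limma adjusted p = 0.338). Entpd7, a nucleotide phosphatase, had 0.806 to 1.48 FPKM in MN, and 3.55 FPKM in ON 2 and 1.55 to 1.75 FPKM in the other ON libraries (difference -0.39, limma adjusted p = 0.338, or -0.23 without ON 2 and ON 3).

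Difference and gene length went together across protein-coding genes. The median log2 difference was 0.36 for 54 genes under 500 bases, 0.30 from 500 up to 750, 0.27 from 750 up to 1000 and 0.20 from 1000 up to 1500 bases. It was 0.13 from 1500 up to 2000, 0.07 from 2000 up to 3000, 0.0018 from 3000 up to 5000 and -0.08 for 5036 genes of 5000 bases or more. Without ribosomal protein and oxidative phosphorylation genes the first value was 0.33 and the last -0.08. Without ON 2 and ON 3 they were 0.36 and -0.06. MM against OS gave -0.10 and -0.0045. After each library's trend with length was subtracted, which was chosen after seeing the data, 40 genes passed, 32 of them higher, and 28 of the 39 were among them. The ribosomal protein median was then 0.33, that of oxidative phosphorylation 0.29 and that of ribosomal copies 0.14. Why shorter genes differed more was not tested.

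**Figure D3:**
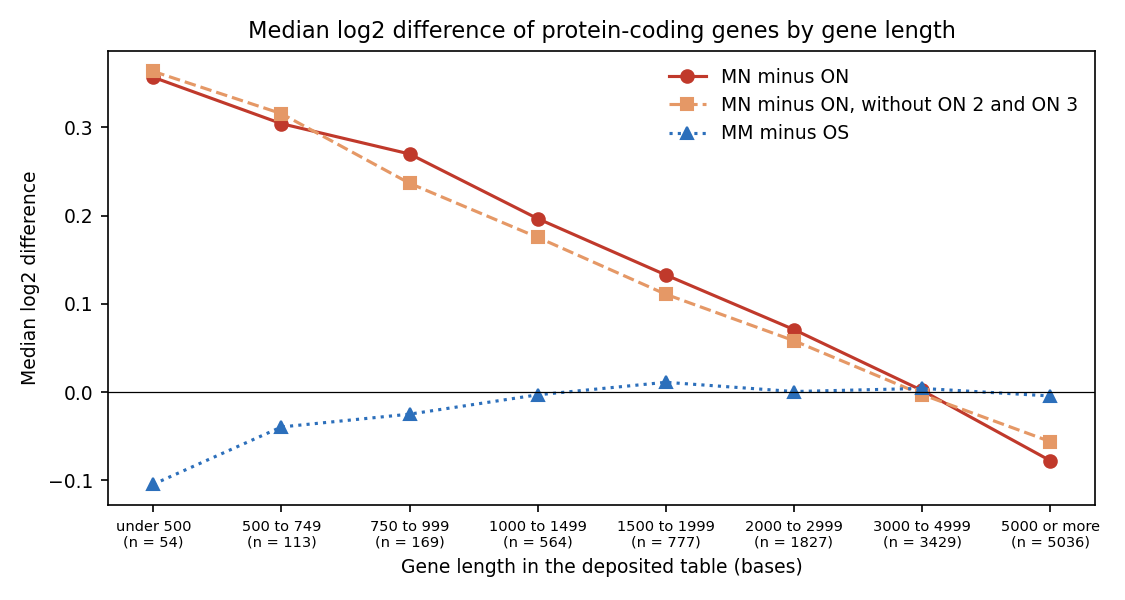
Median log2 difference of protein-coding genes in 8 classes of gene length (x axis, bases, with the number of genes), for MN minus ON, for the same without ON 2 and ON 3, and for MM minus OS. MN minus ON declines over the classes, with 0.36 in the shortest and -0.08 in the longest, and MM minus OS stays between -0.10 and 0.01.

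The other code pair with the same stated treatments, MM against OS, shares no library with MN against ON. In it 0 genes passed by limma, with 905 at an unadjusted p under 0.05. Pancreas genes took 15.9% of reads in MM 2, and MM against OS was not fitted without that library. The ribosomal protein list had a median of 0.02 in MM against OS and the oxidative phosphorylation list -0.02. Rps29 differed by 0.02, Gm11808 by -0.32 and Adgrg1 by -0.08 on the log2 scale. Of the 34 genes that rose, 17 lay above 0 in MM against OS, and of the 5 that fell, 4 lay below 0. The megakaryocyte and platelet list had a median of -0.27 in MM against OS, with 1 of 20 genes above 0. Across all tested genes the log2 differences of the 2 pairs had r = 0.105, or 0.0617 without ON 2 and ON 3, a description over genes, which are not independent.

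The difference between the pairs was tested for each gene in the same fit. Gm12966, a processed pseudogene, alone passed, with 886 genes at an unadjusted p under 0.05. It had 13.4, 11.5, 14.0, 16.5 and 17.2 FPKM in MN, against 7.48, 11.9, 8.82, 8.67 and 8.64 FPKM in ON. Its difference was 0.62 for MN against ON and -0.57 for MM against OS, which differ by 1.19 (limma adjusted p = 0.0345). With 1 library left out, 1 gene passed without MN 2, ON 2, MM 1 or OS 4, 3 without MM 3, 4 without OS 5 and 0 without any of the other 15. For Rps29 the difference between the pairs was 1.95 and did not pass (limma adjusted p = 0.565). Of the ribosomal protein genes 18 of 83, and of the oxidative phosphorylation genes 24 of 84, were under an unadjusted p of 0.05 in this test. Over all tested genes this held for 886 of 15672. In either list 0 genes passed.

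The mimic libraries coded MN stood near saline in the genes that passed, a set in which ON was an end by choice. Of the 34 genes that rose, the saline mean was nearer to the MN mean than to the ON mean in 32, the MM mean in 0 and the OS mean in 0. Of the 5 that fell, this held for 5, 2 and 0. The median of Gm11808 was 370.4 FPKM in MN, 56.3 FPKM in ON and 373 FPKM in saline. These are values with no test. Whether the libraries carry the right codes was not tested, and reads of Mir676 would not show the mimic and so give no check on them. MN minus ON is therefore a difference between libraries labelled MN and ON.

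**Figure D4:**
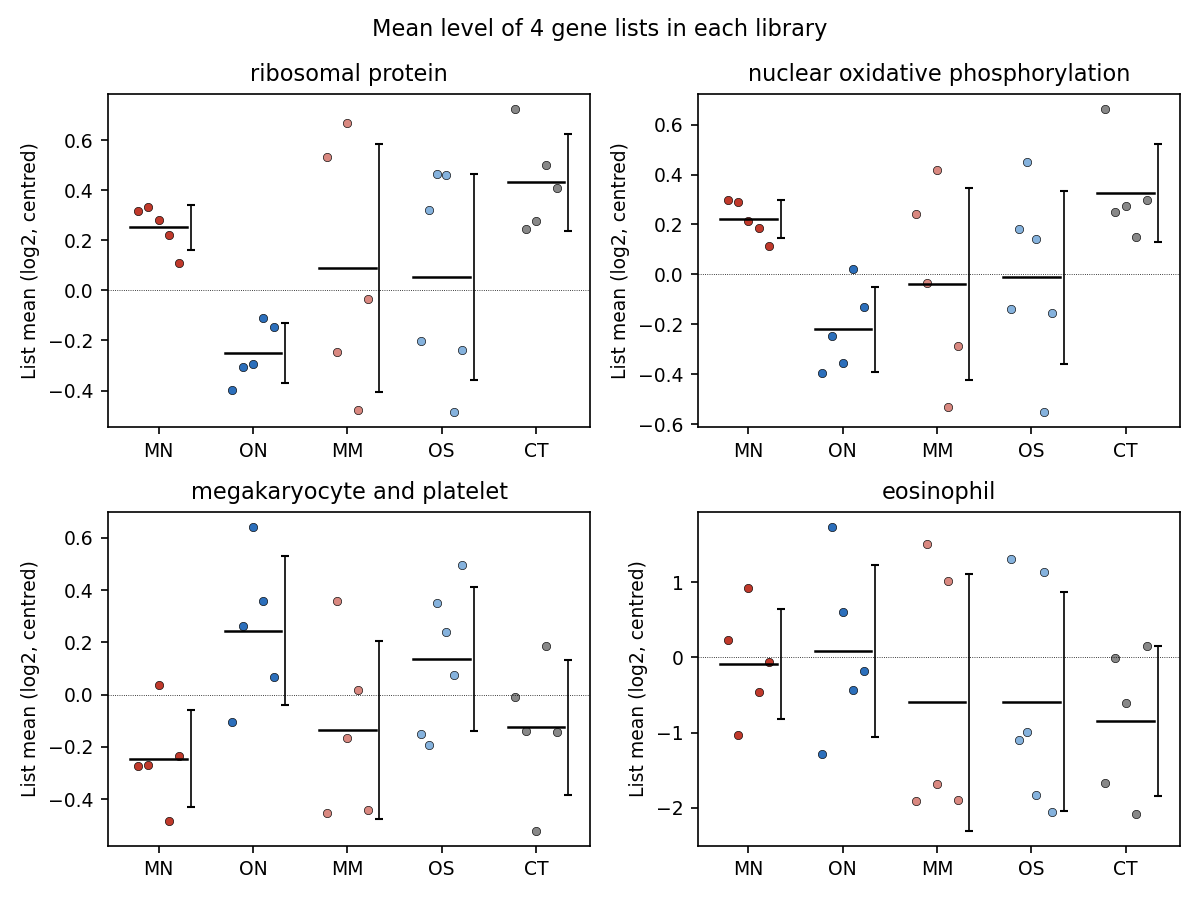
Mean of the members' log2(FPKM + 1) in each library for 4 gene lists, centred for each gene on its mean over MN and ON, with a line at the mean and an error bar of 1 SD. For ribosomal proteins MN runs from 0.11 to 0.33 and ON from -0.40 to -0.11, while MM and OS span both; for eosinophil genes ON 2 is the highest ON library at 1.73.

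Trbv13-3, a T cell receptor V segment in none of the lists and chosen with its values seen, averaged 9.49 FPKM in MN and 3.52 FPKM in ON and rose by 1.25 (SE 0.27, limma adjusted p = 0.0484). The lists of lymphocyte and antibody genes had no member past the threshold, which 0.249% of all tested genes passed. The 20 T cell genes had a median of 0.31, or 0.20 without ON 2 and ON 3. Of the 20, 16 lay above 0, against 50.4% of all tested genes, and 0 passed the threshold. In the fit to MN and ON alone 3 of 20 were higher and 0 lower, against 3.38% and 0.657% of all tested genes. Without ON 2 and ON 3 that fit left 1 higher and 0 lower, against 1.79% and 0.153%. Trbc2, a T cell receptor constant region, had 134 to 171 FPKM in MN and 75.3 to 125 FPKM in ON (difference 0.61, limma adjusted p = 0.489). Cytotoxic and NK cell genes had a median of 0.21, or 0.10 without ON 2 and ON 3, and regulatory T cell and co-inhibition genes 0.12, or 0.22 without them. B cell genes had 0.08, or -0.04 without them, germinal centre B cell genes -0.03 and plasma cell genes -0.04, or 0.03 without them. Immunoglobulin light-chain V segments had 0.32 over 109 tested and heavy-chain V segments 0.15 over 78 (0.36 without ON 2 and ON 3), with 0 passing in either. With each library's trend with gene length subtracted, the V segment medians were 0.12 for light chains and -0.04 for heavy chains. Constant regions had 0.05, or 0.25 without ON 2 and ON 3. Ighe, the constant region of the allergy antibody IgE, was low, at 0.481 to 1.48 FPKM in MN and 0.425 to 1.76 FPKM in ON. Il4, the cytokine that drives IgE, was at 0.855 to 1.24 FPKM in MN and 0.598 to 1.68 FPKM in ON. Neither passed (limma adjusted p of 0.928 and 0.938), with differences of 0.09 for Ighe and 0.04 for Il4, or 0.29 and 0.13 without ON 2 and ON 3, and the type 2 response list had a median of 0.09.

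Granulocyte genes varied widely between libraries of 1 code. Neutrophil genes had a median of -0.34, or -0.22 without ON 2 and ON 3, with 0 of 23 past the threshold. S100a8, a calcium-binding protein of neutrophils, had 1056, 1087, 1058, 2327 and 304 FPKM in MN, against 589, 1010.3, 1192, 1576 and 945 FPKM in ON (difference -0.06, limma adjusted p = 0.978, or 0.02 without ON 2 and ON 3). Eosinophil genes had a median of -0.17, and 0.66 without ON 2 and ON 3. Epx, the eosinophil peroxidase, had 12.2, 2.81, 24.6, 5.61 and 9.11 FPKM in MN, against 2.01, 80.9, 15.2, 6.24 and 7.16 FPKM in ON. Prg2, the major basic protein, had 54.6 to 496 FPKM in MN, and 778 FPKM in ON 2 and 31.0 to 231 FPKM in the other ON libraries. Neither passed (limma adjusted p of 0.945 and 0.981). The difference was -0.29 for Epx and 0.14 for Prg2, or 0.79 and 1.15 without ON 2 and ON 3. ON 2 is also the library with 31.3% of reads from pancreas genes, and the part of this in the eosinophil values was not tested.

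**Figure D5:**
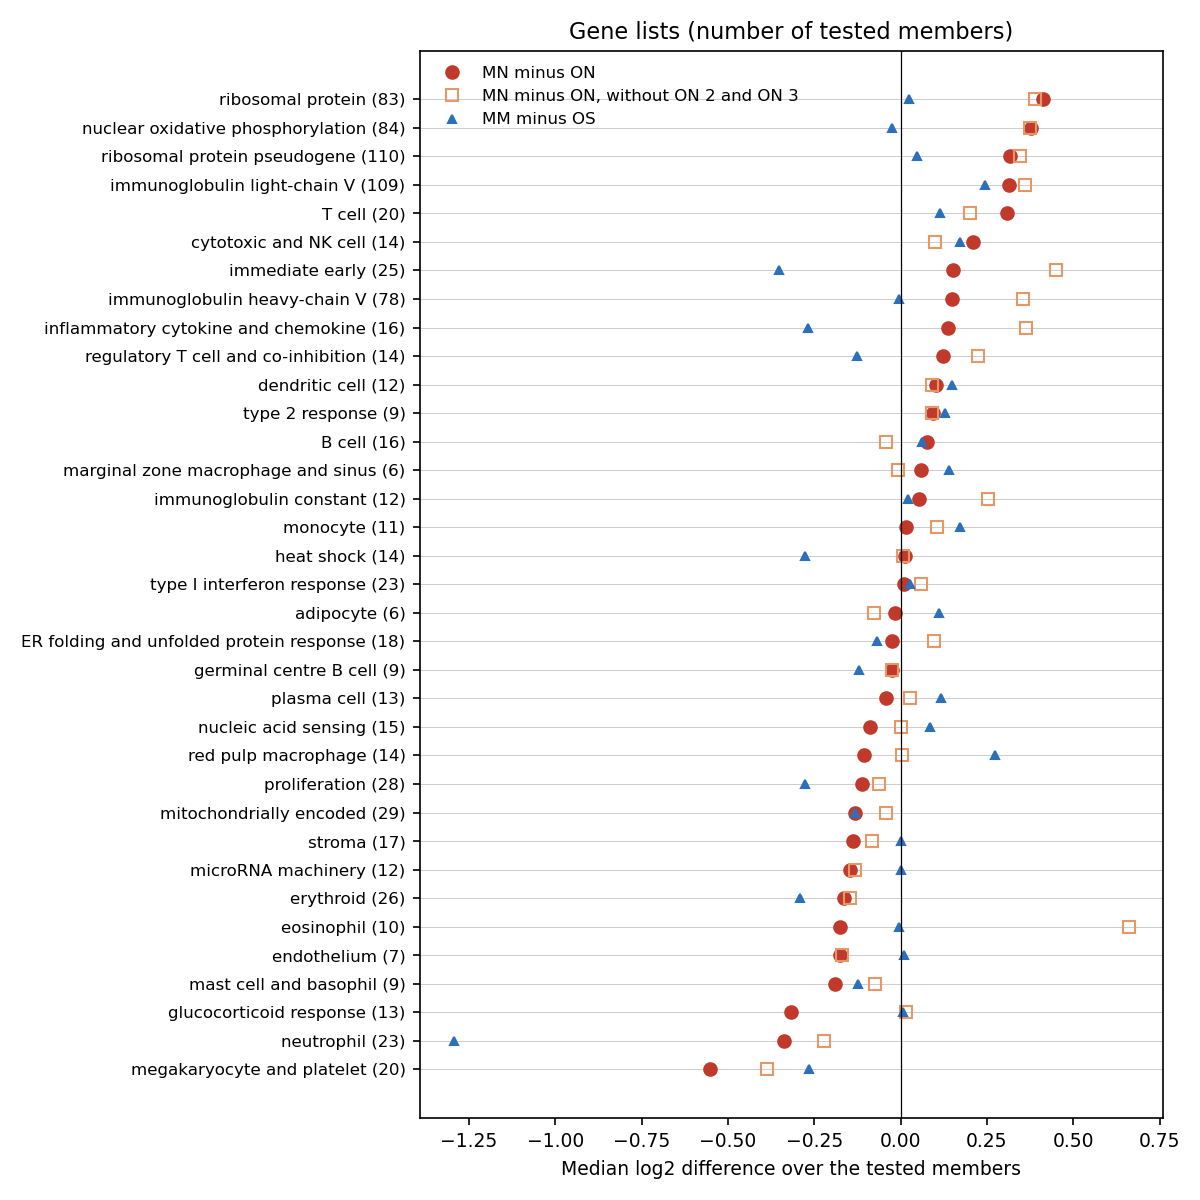
Median log2 difference over the tested members of each gene list with at least 6 of them, without the exocrine pancreas, for MN minus ON, for the same without ON 2 and ON 3, and for MM minus OS. Ribosomal proteins (0.41) and oxidative phosphorylation (0.38) lie at the top and megakaryocyte and platelet genes (-0.55) at the bottom for MN minus ON.

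No member of the remaining lists passed in the fit to all libraries, in which 0.249% of all tested genes did. Medians were -0.16 for erythroid genes and -0.17 for endothelium, 0.10 for dendritic cells, -0.35 for the 2 tested mesothelium genes and -0.15 for microRNA machinery genes. In the lists that follow, the value in brackets is the median without ON 2 and ON 3. Mast cells and basophils had -0.19 (-0.07), monocytes 0.02 (0.11), red pulp macrophages -0.11 (0.0045) and marginal zone macrophages and sinus 0.06 (-0.0084). Stroma had -0.14 (-0.08), adipocytes -0.02 (-0.08), proliferation genes -0.11 (-0.06) and heat shock genes 0.01 (0.0066). Type I interferon response genes had 0.01 (0.06), nucleic acid sensing genes -0.09 (0.0014) and ER folding genes -0.02 (0.10). Immediate early genes had 0.15, or 0.45 without ON 2 and ON 3. Inflammatory cytokines and chemokines had 0.14, or 0.36 without them, and glucocorticoid response genes -0.32, or 0.02 without them. The 6 tested exocrine pancreas genes had -3.59, or 0.06 without them, and 0 endocrine pancreas genes were tested.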

How the data were processed

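The deposited table holds FPKM for 56392 genes in 26 libraries, made by the authors. Per the submitters' processing notes, the tools were edgeR 3.24.3, DESeq2 1.20.0, StringTie 1.3.3b, HISAT2 2.0.5, featureCounts 1.5.0-p3 and CASAVA, with no role stated. The genome build and the use of strand in counting are not given in the sources used here, so antisense and overlapping genes are uncertain. Gene length is a column of the deposited table and no other column was used. Multiplying FPKM by length gave whole reads for all values (tolerance 0.05), which set the depth; without molecular identifiers this covers counting error only. Testing was limited to the 15672 genes (11969 protein-coding) that reached 1 FPKM in 5 or more libraries. Fold changes are on log2(FPKM + 1), which understates low genes. limma 3.58.1 in R 4.3.3, with a variance trend and 1 mean per code, gave MN minus ON, adjusted by Benjamini-Hochberg, at 0.05. The fit was tested on simulated data. Same-numbered MN and ON libraries had correlations of deviations of -0.16 to 0.03, against -0.13 to 0.16 for other pairs. These values show no pairing by number but cannot exclude one, and the main fit used none. Named genes were up to 12 per direction by size among those that passed with mean FPKM of at least 1, filled by smallest p, without predicted genes, pseudogenes and receptor segments. Genes named outside this rule were chosen with values seen: Gm11808, Gm12966, the ribosomal copies, Rps28, Rpl38, Atp5k, Cox5b, Rpl30, Gp1ba, Trbc2, Epx, Prg2, S100a8, Cela1, Ighe, Il4, Trbv13-3 and the seed site genes. Members, 38 gene lists and tests were chosen with earlier results of these data known. Alternatives were another pseudocount (0.1), no filter, median centring, library weights, voom, a replicate block, other sets of libraries and leaving out each library. Some genes that these rules name are not reported here.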

Additional observations from a re-analysis of the deposited data

Results flagged for a closer look

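In 7 of 102 groups of 5 libraries, the highest or lowest lay far from its nearest neighbour (Dixon's test), which chance gives in about 1 in 20 groups. The gene values were compared on the log2 scale and the pancreas share in percent. Pancreas genes took 31.3% of reads in ON 2, against 0.00328% to 4.80% in the other ON libraries. Entpd7 was at 3.55 FPKM in ON 2, against 1.55 to 1.75 FPKM in the others, and Rpl9-ps6 at 28.8 FPKM in ON 2, against 46.1 to 54.0 FPKM. Rpl30 was at 5.15 FPKM in ON 1, against 16.0 to 20.6 FPKM in the other ON libraries. Mir301 was at 0.708 FPKM in ON 5 and at 0 in the others. Llph was at 24.7 FPKM in MN 1, against 21.3 to 21.7 FPKM, and Ndufv3 at 15.2 FPKM in MN 4, against 12.9 to 13.3 FPKM in the other MN libraries. For Gm12966 the difference of MN against ON exceeded that of MM against OS by 1.19 on the log2 scale, by the test of that difference itself.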

How the results depend on the processing

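The 39 genes past the threshold became 632 in the fit to MN and ON alone, 755 with library weights (554 higher), 305 in the fit to MN and ON alone without ON 2 and ON 3, 0 without ON 2 and ON 3, and 2 without ON 2, ON 3, MM 2 and CT 4. They became 23 with a pseudocount of 0.1 and 23 with no filter. With 1 library left out they became 7 (without ON 3) to 34 (without ON 5). Pancreas genes took 15.9% of reads in MM 2, and mitochondrially encoded genes took 6.62% in CT 4. Median centring gave 48, voom on recovered reads 40 and subtraction of the length trend 40. A replicate block in the fit to MN and ON alone gave 113 (103 higher), where the libraries were matched by number alone. The test between the code pairs called 0 to 4 genes with 1 library left out. Of 294 values of 14 named genes that passed, 160 stayed past the threshold and 0 changed sign. Trbv13-3 was not among these 14, and with voom on recovered reads its limma adjusted p was 0.0782. Signs changed in 33 of 987 values, all of genes that did not pass. Without ON 2 and ON 3, in each of 3 fits, Pf4 was 0.0068, S100a8 0.019, Cela1 0.062, Epx 0.79 and Ska2 -0.052. With 1 library left out, S100a8 ran from -0.37 to 0.36, Prg2 from -0.41 to 0.74, Epx from -0.78 to 0.41, Ighe from -0.0061 to 0.23, Il4 from -0.037 to 0.15 and Ska2 from -0.048 to 0.12. With the length trend subtracted, Prg2 was -0.023, Ighe -0.038, Il4 -0.10 and Ska2 -0.0059, and with library weights Epx was 0.16 and Ska2 -0.072. The causes were not tested. Of 777 list medians, 7 moved by more than the spread between libraries. These were 3 with the length trend subtracted, 2 with a pseudocount of 0.1 and 2 with voom. Without ON 2 and ON 3 the exocrine pancreas median went from -3.59 to 0.06 and the eosinophil median from -0.17 to 0.66. Neither counted as moved, so this count does not show that list medians are stable.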
